A study of Mus musculus with 6 samples.

Results

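The lysyl oxidase family consists of 5 genes in the mouse, Lox, Loxl1, Loxl2, Loxl3 and Loxl4, and all 5 were found by symbol among the 24749 Ensembl gene identifiers of the deposited table. Each had a mean of at least 0.5 FPKM (fragments scaled to transcript length and to library size), so all 5 were tested among 16899 genes. RNA came from whole dissected kidneys of mouse embryos of mixed strain at stage E15.5. In 3 libraries the genotype was Foxd1cre; Yapc/c;Tazc/c, called knockout here. In it, Cre active in the Foxd1 stromal lineage meets loxP-flanked alleles of Yap (Yap1) and Taz (Wwtr1). The other 3 libraries were wild type, labelled Cre negative, and the sources used here do not say whether those embryos carried floxed alleles. An effect of the Cre allele itself therefore cannot be told apart from loss of Yap and Taz. Cre acts in 1 lineage of the organ while the RNA comes from all of its cells, so the floxed genes remain expressed elsewhere. No label says whether replicate libraries are from different embryos, so p-values measure the spread between libraries, which may be partly technical.

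Lysyl oxidases are copper-dependent amine oxidases that are secreted into the extracellular matrix. They convert lysine and hydroxylysine side chains of collagen and elastin to aldehydes, which then join neighbouring molecules by covalent cross-links and make the matrix stiff and insoluble. YAP and TAZ, the transcriptional co-activators that Hippo signalling restrains, are known to respond to matrix stiffness, and the fibroblasts and mural cells of the kidney, many of which descend from Foxd1-expressing progenitors, produce much of its interstitial matrix. The comparison asks how each paralogue differed between knockout and wild-type kidneys.

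The 5 genes lie on 5 chromosomes (coordinates on GRCm38, annotation GENCODE M21). The position of Lox is given with its values. Loxl1 (ENSMUSG00000032334) spans chromosome 9, 58287738 to 58313186, minus strand. Loxl2 (ENSMUSG00000034205) spans chromosome 14, 69609068 to 69695834, plus strand, and Loxl3 (ENSMUSG00000000693) chromosome 6, 83034173 to 83052562, plus strand. Loxl4 (ENSMUSG00000025185) spans chromosome 19, 42593982 to 42612813, minus strand. The coding length, without the stop codon, was 1233 bases for Lox and 1821 for Loxl1. It was 2328, 2262 and 2274 bases for Loxl2, Loxl3 and Loxl4, whose longer products carry scavenger receptor cysteine-rich domains in front of the catalytic domain.

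All 5 genes encode the copper-binding histidine motif of the catalytic domain, a run of 11 codons that the annotation splits between 2 exons in each gene. The motif is shown for 4 paralogues because it is a catalytic feature that all members share, and because the values below depend on telling the paralogues apart. Sequences are from the GENCODE M21 transcripts, 5′ to 3′ on the coding strand, with the 4 histidine codons in capitals, and the GRCm38 interval of each includes the intron.
Loxl1 (chr9:58293720-58294381, minus strand): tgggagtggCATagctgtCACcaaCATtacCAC
Loxl2 (chr14:69682316-69689037, plus strand): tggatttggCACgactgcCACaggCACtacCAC
Loxl3 (chr6:83049995-83050125, plus strand): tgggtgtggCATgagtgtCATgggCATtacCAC
Loxl4 (chr19:42598807-42599899, minus strand): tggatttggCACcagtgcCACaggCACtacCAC
Over these 33 bases Loxl2 and Loxl4 were identical at 31, and the other pairs of these 4 at 21 to 25. Of all stretches of 31 bases in the annotated transcripts, Lox and Loxl1 share 2, and the other 9 pairs of paralogues share none. These shared stretches are the sequence in which a read of that length could come from either gene. Overlapping genes touch 3 of the members. Lox shares 30 exon bases with an antisense gene model (AC161119.1) and Loxl2 shares 301 with another (Gm27177), and neither model is in the table. Loxl2 also shares 7 exon bases with the microRNA gene Mir6950 on its own strand. Loxl3 shares 535 exon bases with Htra2, which encodes a mitochondrial protease, on the opposite strand. The sources used here do not say whether quantification used strand.

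Depth was approximated from the lowest steps of the values at 12700000 to 15500000 fragments per library, which puts about 280 to 1070 fragments behind each Lox value and about 40 to 70 behind each Loxl4 value. Wwtr1 fell from 18.8 ± 1.26 to 12.9 ± 0.635 FPKM (SD, n = 3 each; limma adjusted p = 0.0235), and Yap1, at 51.0 ± 4.95 and 45.4 ± 2.94 FPKM, was not called (limma adjusted p = 0.378). Wwtr1 was no longer called, at an adjusted p of 0.0663 to 0.115, when wild-type library 2 or a single knockout library was removed, nor with libraries rescaled to equal sums (0.0517). Kidney markers were present in every library, among them nephron progenitor genes with a summed level of 64.3 to 72.8 FPKM over 5 genes. Wild-type library 3 stood apart. Its summed level of 5 skeletal muscle markers was 81.4 FPKM, against 8.15 to 17.4 in the other libraries, with 5 of 5 highest in that library, and its sum of 5 nerve and glia markers was 54.4 against 3.42 to 4.65, with 3 of 5 highest there. No marker of these lists was at 0 in all libraries, although some genes had single values of 0. The paralogues are therefore also given without this library.

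Lox, the founding member, which cross-links both collagen and elastin, was the only paralogue called lower. The gene (ENSMUSG00000024529) spans chromosome 18, 52516067 to 52529867, minus strand. It measured 17.3, 15.3 and 16.9 FPKM in wild-type libraries 1, 2 and 3 and 5.94, 4.67 and 4.64 FPKM in knockout libraries 1, 2 and 3. Every knockout library lay far below every wild-type library, and the gap between groups was larger than the spread within either. The knockout mean of 5.08 ± 0.742 FPKM was 30.8% of the wild-type mean of 16.5 ± 1.08 FPKM (SD, n = 3 each). On the log2(FPKM + 1) scale, which understates changes of low values, the difference was -1.53 (SE 0.10, 95% confidence interval -1.76 to -1.29, limma adjusted p = 0.00138). Ordered by unadjusted p, Lox was number 7 of the 16899 genes tested. Of the 5 paralogues 1 was called lower and 0 were called higher, where over all genes tested 0.604% were called lower, 0.130% higher and 0.734% in either direction. Without wild-type library 3 the log2 difference of Lox was -1.51 (limma adjusted p = 0.00462). In whole-kidney RNA, fewer cells that express a gene and less of its RNA per cell cannot be told apart.

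Markers of vascular smooth muscle, a cell type that makes lysyl oxidase, moved with the genotype as well. Their summed level over 6 genes was 161 to 190 FPKM in wild-type libraries against 63.6 to 89.2 FPKM in knockouts, with 3 of 6 called lower (Acta2, Tagln and Myl9), where 0.604% of all genes tested were. Myl9, at 102 and 33.4 FPKM, made up most of the difference in the sum, and Des, of the same list, was at 98.7% of wild type (limma adjusted p = 0.953). The 3 calls were lost without any 1 library, apart from Acta2 without knockout library 3 and Myl9 without knockout library 1 (adjusted p of the lost calls between 0.0520 and 0.147). The 7 stroma markers summed to 318 to 354 FPKM in wild-type libraries against 270 to 290 FPKM in knockouts, with 0 of 7 called. Dcn, at 61.3 and 29.3 FPKM, had the largest difference among them. Pdgfra, at 63.0 and 69.8 FPKM, was the only one with a higher knockout mean. Both were named after their values were seen. Markers of epithelium and cartilage were higher in knockout libraries without overlap, with sums of 98.7 to 105 FPKM against 119 to 133 for early nephron and podocyte, 128 to 132 against 145 to 150 for the ureteric tree and 9.61 to 13.2 against 16.3 to 16.8 for cartilage. Among them Wnt4, a signal of early nephron formation, was called higher (log2 0.63, limma adjusted p = 0.0402), a call that ended when wild-type library 2 or a single knockout library was removed (0.136 to 0.163). No smooth muscle or stroma marker was at 0 in any library. The part of these cell types in the Lox result was not tested.

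**Figure D1:**
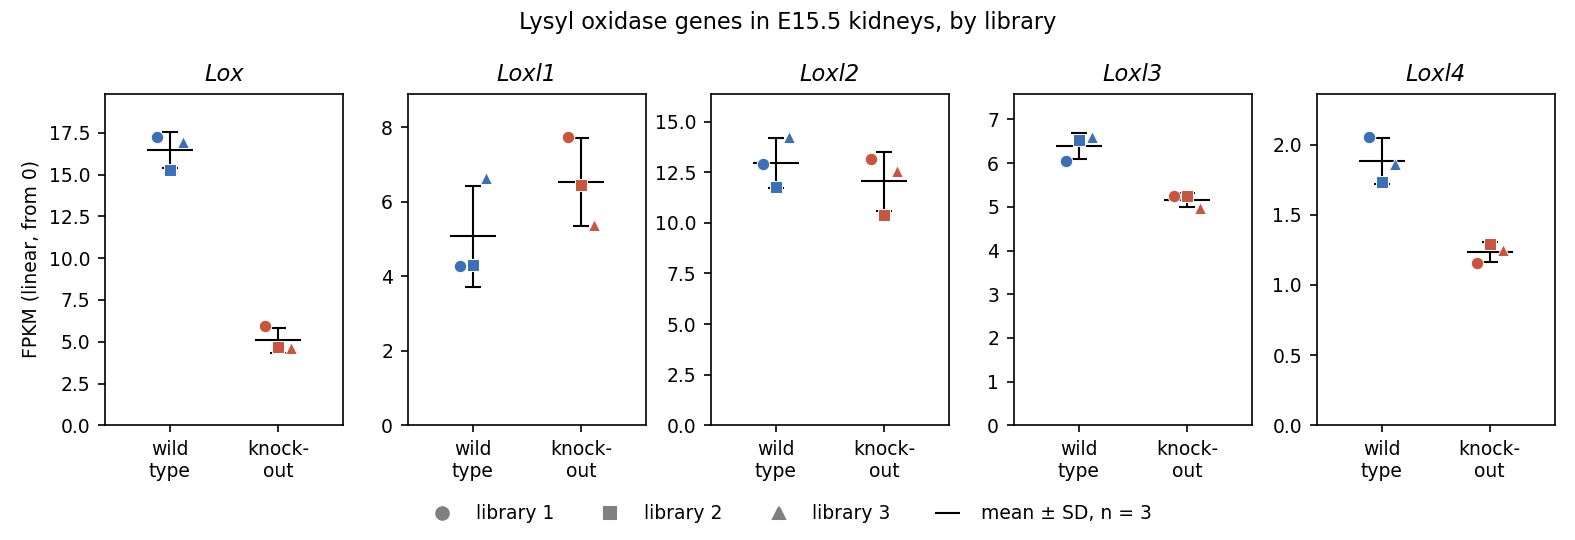
FPKM of the 5 lysyl oxidase genes on linear axes from 0, with wild-type libraries in blue and knockout libraries in red, marker shape for the library number and a bar for the mean ± SD (n = 3). Lox sits between 15.3 and 17.3 FPKM in wild-type and between 4.64 and 5.94 FPKM in knockout libraries, while the Loxl1 and Loxl2 groups overlap.

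Loxl1 is the closest relative of Lox and is known for its role in elastic fibres, to which it is tethered by fibulin-5. Its values were 4.27, 4.31 and 6.64 FPKM in wild-type libraries 1, 2 and 3, and 7.74, 6.46 and 5.37 FPKM in knockout libraries 1, 2 and 3. The groups overlapped only through wild-type library 3, which exceeded 2 of the 3 knockout libraries. The means were 5.07 ± 1.35 and 6.53 ± 1.19 FPKM (SD, n = 3 each), and the log2 difference of 0.32 was not called (SE 0.18, 95% confidence interval -0.10 to 0.74, limma adjusted p = 0.416). Without wild-type library 3 the log2 difference was 0.50, still not called (limma adjusted p = 0.132). This library is the one with raised muscle and nerve markers, and the part of those tissues in its Loxl1 value was not tested.

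Loxl2, which also acts on basement membrane collagen, showed no detectable difference. Wild-type libraries 1, 2 and 3 held 12.9, 11.8 and 14.2 FPKM and knockout libraries 13.2, 10.4 and 12.6 FPKM. The ranges overlapped broadly. The log2 difference was -0.10, with a 95% confidence interval of -0.34 to 0.14 (limma adjusted p = 0.668), an interval that excludes a fall of the size measured for Lox. Without wild-type library 3 it was -0.04 (limma adjusted p = 0.889), and without knockout library 2 -0.0064 (0.985).

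Loxl3 and Loxl4 were lower in every knockout library than in any wild-type library, but the differences did not pass the test. Loxl3, needed in mice for palate and spine development, measured 6.05, 6.54 and 6.60 FPKM in wild-type libraries against 5.24, 5.25 and 4.97 FPKM in knockouts, 80.6% of wild type. Its log2 difference was -0.26 (95% confidence interval -0.44 to -0.09, limma adjusted p = 0.178). Htra2, the gene that shares exon bases with it, was 27.0, 28.6 and 32.4 FPKM in wild-type libraries against 27.6, 30.6 and 28.9 FPKM in knockouts (log2 -0.01, limma adjusted p = 0.954). Loxl4, the least abundant paralogue, measured 2.06, 1.73 and 1.86 FPKM in wild-type libraries against 1.16, 1.29 and 1.25 FPKM in knockouts, 65.5% of wild type. Its log2 difference was -0.37 (95% confidence interval -0.58 to -0.15, limma adjusted p = 0.148), and -0.57 with a pseudocount of 0.1 (limma adjusted p = 0.145). Without wild-type library 3 the differences were -0.24 for Loxl3 and -0.37 for Loxl4 (limma adjusted p = 0.196 and 0.139). Groups without overlap and with knockout below were found for 3 of the 5 paralogues, against 11.8% of all genes tested (12.5% with knockout above and 24.3% in either direction). At an unadjusted p under 0.05 Lox, Loxl3 and Loxl4 were lower and no paralogue was higher, against 16.1% of all genes tested in either direction. An exact two-sided permutation test of each paralogue gave p = 0.1 for Lox, Loxl3 and Loxl4, the smallest that 3 against 3 allows, 0.3 for Loxl1 and 0.5 for Loxl2.

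**Figure D2:**
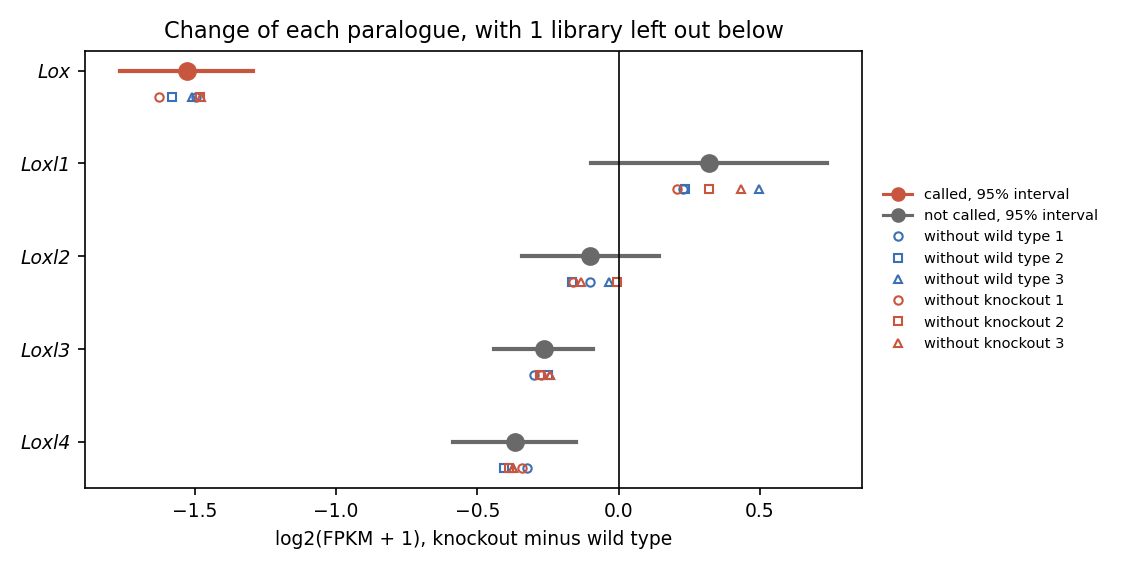
Difference in log2(FPKM + 1), knockout minus wild type, for each paralogue, with its 95% confidence interval from limma (large symbols, red where called) and, below each, the difference after leaving out 1 library (small open symbols). Lox stays between -1.63 and -1.48 with any 1 library left out, and Loxl1 ranges from 0.21 to 0.50.

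The unequal change of the paralogues was compared within libraries, as the difference in log2(FPKM + 1) between 2 paralogues, for all 10 pairs. Lox lay 1.55 ± 0.286 above Loxl1 in wild-type libraries and at -0.30 ± 0.114 relative to it in knockout libraries (SD, n = 3 each), a shift of -1.85. Its shift was -1.43 against Loxl2, -1.26 against Loxl3 and -1.16 against Loxl4. For each of these 4 pairs the knockout libraries did not overlap the wild-type libraries. The same held for Loxl1 against Loxl3 (shift 0.58) and Loxl1 against Loxl4 (shift 0.69). For these 6 pairs the exact two-sided permutation test gave p = 0.1, the smallest possible, which is 0.167 after Benjamini-Hochberg adjustment over the 10 pairs, so the design could not take any pair past 0.05. The 4 pairs left, Loxl1 against Loxl2 and those among Loxl2, Loxl3 and Loxl4, had shifts of 0.10 to 0.42 and overlapped (exact permutation p between 0.2 and 0.5). The number of pairs without overlap was 8 with a pseudocount of 0.1, without wild-type library 3 or without knockout library 2, and 7 without knockout library 3, where fewer libraries make overlap less likely. The shift of Loxl3 against Loxl4 ranged from 0.027 to 0.27 over the settings tried, and that of Loxl2 against Loxl3 from 0.087 to 0.27.

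The order of the paralogues changed with genotype. FPKM is scaled to transcript length, so levels of different genes can be set side by side. In wild-type kidneys Lox was the most abundant (16.5 FPKM), followed by Loxl2 (13.0), Loxl3 (6.40), Loxl1 (5.07) and Loxl4 (1.88). Of these neighbours only Loxl3 and Loxl1 had overlapping ranges. In knockout kidneys Loxl2 came first (10.4 to 13.2 FPKM), then Loxl1 (mean 6.53 FPKM), Loxl3 (5.15), Lox (5.08) and Loxl4 (1.23), and of these neighbours only Loxl3 and Lox had overlapping ranges. Beyond neighbours, Lox (4.64 to 5.94 FPKM) also overlapped Loxl1 (5.37 to 7.74 FPKM). The ratio of Loxl2 to Lox was between 0.747 and 0.841 in wild-type libraries and between 2.22 and 2.71 in knockout libraries.

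Summed over the 5 genes, lysyl oxidase RNA was 42.5, 39.6 and 46.3 FPKM in wild-type libraries 1, 2 and 3 and 33.2, 28.1 and 28.8 FPKM in knockout libraries. The knockout mean of 30.0 ± 2.79 FPKM was 70.2% of the wild-type mean of 42.8 ± 3.36 FPKM (SD, n = 3 each). Lox made up 38.6% ± 2.00 of the sum in wild-type and 16.9% ± 0.905 in knockout libraries. The shares of Loxl1 (11.8% ± 2.27 and 21.7% ± 2.60) and Loxl2 (30.3% ± 0.547 and 40.1% ± 3.33) were higher in knockout libraries, as shares of a smaller sum. Without Lox, the other 4 genes summed to 26.3 ± 2.67 FPKM in wild-type libraries against 25.0 ± 2.06 FPKM in knockouts, ranges that overlapped. The difference in the sum of all 5 genes was -12.8 FPKM, and -11.0 FPKM without wild-type library 3. These sums are descriptions and were not tested.

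**Figure D3:**
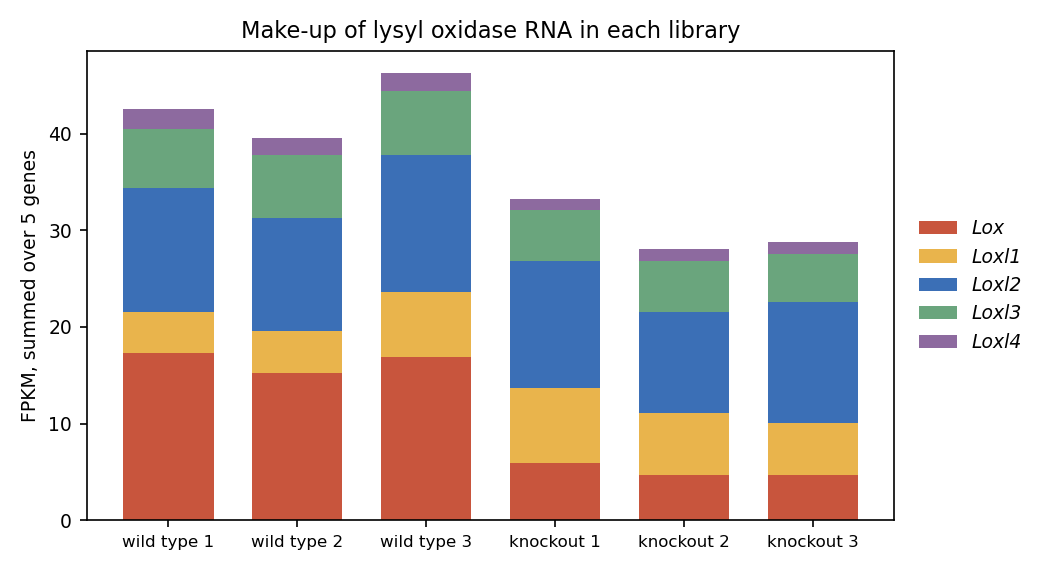
Stacked FPKM of the 5 lysyl oxidase genes in each of the 6 libraries, on a linear axis from 0. The sum is 39.6 to 46.3 FPKM in wild-type libraries against 28.1 to 33.2 FPKM in knockouts, and the Lox segment at the base is the part that is visibly shorter in knockout libraries.

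Genes that supply, activate or receive lysyl oxidases were read from 9 lists, of which 75 of 78 genes were tested. These lists also hold other copper amine oxidases, YAP and TAZ targets and hypoxia response genes. Of the genes tested in these lists, 5 were called lower and 0 higher, against 0.604% and 0.130% of all genes tested. The lists were chosen with earlier results of these data known. Their shares, here and below, are therefore descriptions and not tests of the lists. Fibrillar collagens are the main substrates, and 2 of 11 chains were called lower. Col3a1, the collagen III chain, was 256, 262 and 308 FPKM in wild-type libraries against 188, 169 and 179 FPKM in knockouts (log2 -0.62, limma adjusted p = 0.0237). Col5a2, a collagen V chain that regulates fibril width, was 36.9, 36.3 and 41.1 FPKM in wild-type libraries against 24.0, 22.6 and 24.0 FPKM in knockouts (log2 -0.67, limma adjusted p = 0.00480). Both genes had groups that did not overlap, and the median log2 difference over the 11 chains was -0.15, against -0.0020 over all genes tested. The collagen I chains, named after their values were seen, were not called (Col1a1 log2 -0.49, limma adjusted p = 0.383; Col1a2 log2 -0.16, limma adjusted p = 0.752).

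Among elastin and its scaffold 1 of 10 genes was called lower, where 0.604% of all genes tested were. It was Fbn1, the fibrillin of microfibrils, at 71.1% of wild type (log2 -0.48, limma adjusted p = 0.0379). Elastin itself and fibulin-5, the partner of Loxl1, were named after their values were seen. Eln was 4.49, 4.75 and 8.81 FPKM in wild-type libraries against 6.33, 5.02 and 4.72 FPKM in knockouts, with the highest value in wild-type library 3 (log2 -0.10, limma adjusted p = 0.873). Fbln5 was 10.9, 9.43 and 10.2 FPKM in wild-type libraries against 7.31, 5.36 and 6.56 FPKM in knockouts, which did not overlap but missed the threshold (log2 -0.60, limma adjusted p = 0.0697). The median of the list was -0.05. Of its 10 genes 3 had knockout below wild type without overlap and 2 above, against 11.8% and 12.5% of all genes tested. Mfap5, at 34.7% of wild type (log2 -1.13, limma adjusted p = 0.106), was the lowest of the list. Emilin1, at 132% (log2 0.41, limma adjusted p = 0.183), was the highest. Both were named after their values were seen, and neither was called.

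Among genes that activate or dock lysyl oxidases, or aid procollagen processing, 2 of 9 tested were called lower, where 0.604% of all genes tested were. Pcolce, which enhances the removal of collagen propeptides by BMP1, fell to 67.0% of wild type (log2 -0.55, limma adjusted p = 0.00715). Fn1, fibronectin, which binds Lox and aids its activation, fell to 71.2% (log2 -0.48, limma adjusted p = 0.0326). Bmp1, named after its value was seen, encodes the protease that cleaves the Lox proenzyme, and it was 19.1 ± 3.02 FPKM in wild-type libraries against 22.2 ± 1.22 FPKM in knockouts (SD, n = 3 each; log2 0.21, limma adjusted p = 0.384). Over this list 5 of 9 genes had knockout below wild type without overlap, as did 11.8% of all genes tested, and the median log2 difference was -0.26.

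The remaining lists had 0 calls by limma. Their counts at an unadjusted p under 0.05 stand against 6.94% lower and 9.14% higher over all genes tested. Of 15 genes for lysine hydroxylation and collagen folding, 2 were lower and 1 higher at an unadjusted p under 0.05. P4ha3, a prolyl hydroxylase subunit (log2 -0.46, limma adjusted p = 0.0889), and Plod2, the lysyl hydroxylase of collagen telopeptides (log2 -0.30, limma adjusted p = 0.146), had the smallest p. Of 6 copper supply genes 1 was lower and 1 higher unadjusted, the exporter Atp7a, which loads copper into lysyl oxidases (log2 -0.20, limma adjusted p = 0.173), and the copper chaperone Atox1 (log2 0.24, limma adjusted p = 0.162). Among 6 collagen IV chains, with 1 lower and 1 higher unadjusted, Col4a4 (log2 -0.31, limma adjusted p = 0.288) and Col4a2 (log2 0.23, limma adjusted p = 0.307) came first. The other copper amine oxidases Aoc1 (log2 0.21, limma adjusted p = 0.417) and Aoc2 (log2 0.02, limma adjusted p = 0.949) had 0 of 2 at an unadjusted p under 0.05.

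Targets of YAP and TAZ and hypoxia response genes were read beside the family. Of 7 tested targets of YAP and TAZ, 5 were lower and 0 higher at an unadjusted p under 0.05, against 6.94% lower and 9.14% higher over all genes tested, with a median log2 difference of -0.26. Lats2, a Hippo kinase (log2 -0.30, limma adjusted p = 0.129), and Ccn1, a matricellular protein (log2 -0.46, limma adjusted p = 0.162), had the smallest p. Lox is known to be induced by hypoxia in other settings. Of 10 hypoxia response genes 1 was higher and 0 lower unadjusted, with a median of -0.07. Vegfa (log2 0.20, limma adjusted p = 0.283) and Ankrd37 (log2 -0.18, limma adjusted p = 0.349) came first. A link between either list and the Lox result was not tested.

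**Figure D4:**
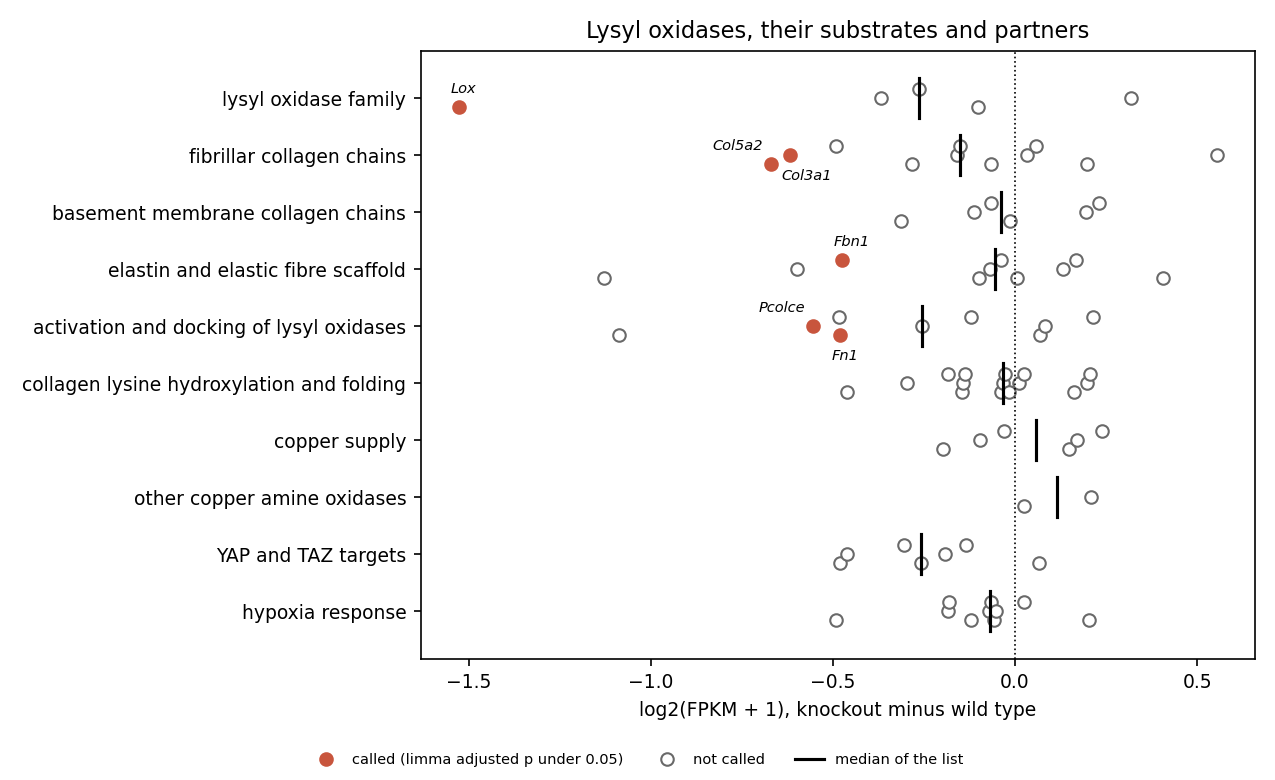
Difference in log2(FPKM + 1), knockout minus wild type, for every tested gene of the family and of 9 lists (points, filled red where called by limma). The lists hold substrates, partners, related enzymes, YAP and TAZ targets and hypoxia response genes, and a black bar marks the median of each. Lox at -1.53 lies left of every other gene drawn, and all 6 called genes lie below 0.

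Calls in these lists were less stable than that of Lox. The call of Col3a1 ended, with an adjusted p of 0.0629 to 0.116, on removal of a single knockout library or of wild-type library 2. For Fbn1 leaving out any of the 6 libraries did so (0.0575 to 0.157), and for Fn1 any except wild-type library 1 (0.0629 to 0.157). Col5a2 and Pcolce were called with any 1 library left out. Over the 15 alternatives listed in the last section, the call held in 15 for Col5a2, 14 for Pcolce, 7 for Col3a1, 5 for Fn1 and 3 for Fbn1. Of the 5 called genes, Fbn1, Pcolce and Fn1 share exon sequence with a gene on the opposite strand, and Col3a1 and Pcolce with a gene model on their own strand.

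The genes whose values followed those of Lox most closely were sought among 15405 genes averaging 1 FPKM or more. Likeness was the root mean square difference between the log2(FPKM + 1) values of 2 genes over the 6 libraries, each gene centred on its own mean. The closest was Col12a1, which encodes a fibril-associated collagen (difference 0.0862), with 23.7, 23.5 and 24.9 FPKM in wild-type libraries against 9.78, 7.40 and 8.24 FPKM in knockouts. Next came Clca3a1 (0.0906), the matrix proteoglycan gene Ogn (0.105), the aldehyde oxidase gene Aox3 (0.113) and Reln, which encodes reelin (0.124). The knockout means of these 5 genes were 9.91% (Aox3) to 35.3% (Col12a1) of wild type. The likeness of Aox3 depends on the added 1, since its knockout values were 0.361, 0.208 and 0.321 FPKM. With a pseudocount of 0.1 its log2 difference was -2.98 in place of -1.62, and that of Lox was -1.68. Likeness was not computed with another pseudocount. Likeness here mostly reflects the size of the difference between genotypes, since only 6 libraries enter it. The genes nearest to Loxl1 were 1700017B05Rik (0.0779), Gas2l1 (0.0804) and Dpysl4 (0.0861), all with their highest wild-type value in library 3 and a knockout mean of 121% to 124% of wild type. Nearest to Loxl2 were Sntb1, Man2b2 and Gnal, to Loxl3 Adamts15, 1500009L16Rik and Rbms1, and to Loxl4 Cavin2, Pde4b and Sept7, at differences of 0.0229 to 0.0448.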

How the data were processed

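The authors deposited FPKM values for 24749 genes in 1 table with a column for each of the 6 libraries. The submitters' processing notes name bcl2fastq 2.17.1.14, Salmon and the build GRCm38 (mm10), and these sources do not give the Salmon version, the annotation or the summing to genes. Against each gene's geometric mean, the median log2 ratio came to 0.0038 in every library, so a scaling between libraries was already applied. A symbol was found for 24469 identifiers, and 0 of 15 library pairs were identical. Genes averaging 0.5 FPKM or more were fitted as log2(FPKM + 1) with limma 3.58.1 in R 4.3.3 (genotype only, trended and robust moderation). They were called where p, after Benjamini-Hochberg adjustment over all 16899 genes, was under 0.05. The procedure was also run on simulated data with independent noise and no outlying library, which cannot show how stable the calls are here. Depth was approximated from genes with 1 transcript of at least 2 kb, taking the lowest step as 1 fragment, and is approximate. Positions and transcripts came from GENCODE M21, and motif sequences were translated with Biopython 1.88.

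The members and lists were chosen with earlier results of these data known. Pairs of paralogues were compared by an exact permutation test of their within-library differences. Named are all members, from each list up to 4 called genes or otherwise the 2 with the smallest p, exon-overlapping genes, Yap1 and Wwtr1, and the 5 genes most like Lox or 3 most like another member. Genes outside this rule are said to be named after their values were seen. Of the 13 marker lists, those not given above had overlapping summed levels: endothelium 151 to 170 FPKM in wild-type and 152 to 158 in knockout libraries, macrophage 20.0 to 22.6 and 19.4 to 20.7, red blood cell 3719 to 6224 and 4263 to 6429, adrenal cortex 3.94 to 5.42 and 3.85 to 4.14, and gonad 7.89 to 10.2 and 7.10 to 8.14.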

Additional observations from a re-analysis of the deposited data

How the results depend on the processing

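Each paralogue was refitted under 15 alternatives (pseudocounts of 0.1 and 0.5, other filters, scalings and moderation, a replicate block, and each library left out), and all 5 kept their direction and their side of the threshold in each. Lox ranged from -1.68 to -1.48 (adjusted p 0.000969 to 0.0150), Loxl1 from 0.21 to 0.50 (0.132 to 0.662), Loxl2 from -0.16 to -0.0064 (0.547 to 0.985), Loxl3 from -0.31 to -0.24 (0.154 to 0.421) and Loxl4 from -0.57 to -0.33 (0.0976 to 0.357). The number of genes called, 124, became 54 without wild-type library 2 and 68, 58 and 59 without knockout library 1, 2 and 3. It was 158 without wild-type library 3, where the share of lower calls was 65.2% in place of 82.3%. For the other lists, the number of called genes was counted anew in each setting, so it can include genes outside the 5 called at first. It became 2 to 4 with 1 library left out (2 on removing a single knockout library or wild-type library 2). It was 3 with no filter on low values, with quantile normalization or without robust moderation, and 2 with libraries rescaled to equal sums or without a trend in the prior. Among these named genes with 1 library left out Aoc2 ranged from -0.094 to 0.125, below 0 without wild-type library 1 or knockout library 3 (-0.04), and Htra2 from -0.069 to 0.060, above 0 without wild-type library 3 or knockout library 1 (0.02). None of these values was called. The causes were not tested. Replicate numbers are shared between the groups, and no label says whether they pair the libraries. Deviations of same-numbered libraries correlated at only 0.024, -0.042 and 0.050. These values show no broad shared effect but cannot exclude a pairing that moves few genes. With a replicate block 32 genes were called in all and 1 in the other lists, Lox had an adjusted p of 0.0150, and Wwtr1 was no longer called (0.108). Loxl4, with the fewest fragments, is measured with the least precision in counting.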
